A study of Rattus norvegicus with 83 samples.

Results

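The insulin-like growth factor (IGF) genes described here are 9 rows of a count table of 17483 gene symbols: the ligand gene Igf1, the receptor genes Igf1r and Igf2r, and the binding protein genes Igfbp2, Igfbp3, Igfbp4, Igfbp5, Igfbp6 and Igfbp7. They were chosen by name, and all 9 were present in the table. The table covers 83 BRB-seq libraries, made by a pooled method that tags the RNA of each sample with a barcode, from Sprague-Dawley rat pups and fetuses, with testis as the labelled tissue. Dams of all groups were gavaged daily from gestational day 7, with corn oil alone (vehicle), with methimazole at 8 or 16 mg/kg bodyweight per day (MMI8, MMI16) or with amitrole at 25 or 50 mg/kg bodyweight per day (Ami25, Ami50). Each compound is a known inhibitor of thyroid hormone synthesis, through thyroid peroxidase. Each of the 5 treatments had 6 libraries with the label GD21 (gestational day 21). With the label PD16 (pup day 16) there were 10 vehicle, 10 MMI8, 10 MMI16, 11 Ami25 and 12 Ami50 libraries. The labels used here do not say which pups shared a litter, so p-values measure the spread between libraries, which may be smaller than that between litters.

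IGF-1 is a small secreted protein that promotes growth and survival of cells. It acts through the tyrosine kinase receptor encoded by Igf1r, which signals through insulin receptor substrates to the PI3K-AKT and MAP kinase pathways. The receptor encoded by Igf2r does not signal in this way: it carries IGF-2 and mannose 6-phosphate-tagged enzymes to lysosomes. The binding proteins IGFBP-2 to IGFBP-6 hold IGFs with high affinity and so set how much ligand reaches the receptor. IGFBP-6 prefers IGF-2, while IGFBP-7 binds IGFs only weakly and is also known as a matrix protein of vessels. Growth hormone and thyroid hormone are both known regulators of Igf1 in liver, and many tissues also make IGF-1 locally.

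Several values went against the labels, and every result below is between groups as labelled. Transcripts of the adrenal cortex, the steroid-making outer layer of the adrenal gland, summed to between 11860 and 77727 CPM (counts per 1000000 counts of the library) over 9 marker genes. Of 13 testis marker genes, the 11 in the table other than Inha, which the adrenal cortex also expresses, gave 110 counts together of the 57573311 over all libraries, and Dmrt1 was at 0 in every group. Embryonic globins, which are made before birth, took a median of 14.1% of globin counts in PD16 vehicle, 16.1% in PD16 MMI8 and 16.8% in PD16 MMI16. In PD16 Ami25 and PD16 Ami50 the medians were 0.180% and 0.130%, and in the GD21 groups they lay between 0.110% and 0.168%. So the PD16 amitrole libraries had the globin pattern of the GD21 libraries and not that of the other PD16 libraries. Amitrole treatment and developmental stage cannot be told apart in that contrast. In vehicle, MMI8 and MMI16 the median share was higher at PD16 than at GD21, the reverse of the labelled order. Among PD16 Ami50 libraries, 8 of 12 had under 10 CPM of Eif2s3y, a gene of the Y chromosome, and the liver gene Alb reached 200 CPM in 10 GD21 and 5 PD16 libraries. Totals ran from 495369 to 1627114 counts at GD21 and from 202270 to 1186973 at PD16, where 1 count equals 2.03 CPM at the median total.

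The sequences just before the transcription starts of 4 binding protein genes are shown because these genes moved in opposite directions in PD16 Ami50: Igfbp2 and Igfbp6 were higher than in vehicle, Igfbp3 and Igfbp4 lower. They come from RefSeq on build GRCr8, and each covers the 250 bases before the annotated start, 5′ to 3′ on the gene's strand. Capitals mark a match to GGGCGG, the GC box, or to TATAAA, the TATA box.
Igfbp2, chr9:81864561-81864810, forward strand: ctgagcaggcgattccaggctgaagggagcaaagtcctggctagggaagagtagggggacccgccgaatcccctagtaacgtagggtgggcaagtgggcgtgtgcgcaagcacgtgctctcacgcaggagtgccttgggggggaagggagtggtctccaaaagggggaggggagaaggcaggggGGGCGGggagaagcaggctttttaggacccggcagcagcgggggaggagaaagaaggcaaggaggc
Igfbp6, chr7:135154669-135154918, forward strand: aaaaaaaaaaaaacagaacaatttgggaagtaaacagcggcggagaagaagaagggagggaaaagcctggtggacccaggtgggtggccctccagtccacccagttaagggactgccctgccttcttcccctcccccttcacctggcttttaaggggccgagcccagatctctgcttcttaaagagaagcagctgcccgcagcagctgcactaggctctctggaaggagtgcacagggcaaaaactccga
Igfbp3, chr14:86277945-86278194, reverse strand: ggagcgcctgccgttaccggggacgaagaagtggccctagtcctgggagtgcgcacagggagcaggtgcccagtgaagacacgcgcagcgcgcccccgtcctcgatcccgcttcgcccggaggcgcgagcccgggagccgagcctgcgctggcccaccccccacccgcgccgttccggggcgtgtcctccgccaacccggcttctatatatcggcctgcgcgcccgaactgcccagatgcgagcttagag
Igfbp4, chr10:84491221-84491470, forward strand: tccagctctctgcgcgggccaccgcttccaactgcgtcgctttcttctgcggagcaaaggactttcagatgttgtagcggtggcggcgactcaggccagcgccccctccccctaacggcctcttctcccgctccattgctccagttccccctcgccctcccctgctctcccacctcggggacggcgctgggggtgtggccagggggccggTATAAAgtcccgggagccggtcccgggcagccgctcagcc

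The Igfbp2 window held 1 GGGCGG, 66 bases before the start, and the Igfbp4 window held 1 TATAAA, 40 bases before it. AGGTCA, the half-site that thyroid hormone receptors recognise, and CCAAT were also searched, each motif on both strands, and no 2 matches overlapped. None of the windows of the 9 genes held AGGTCA or CCAAT. Over all 33469 windows of this length, 14.1% held AGGTCA, 30.5% GGGCGG, 34.0% CCAAT and 12.9% TATAAA. GC content was 64.0% for Igfbp2, 54.8% for Igfbp6, 71.6% for Igfbp3 and 68.8% for Igfbp4, against a median of 51.2% over all windows. Of the windows not printed here, those of Igfbp7, Igf2r and Igf1r held 4, 2 and 1 GGGCGG. Those of Igf1 and Igfbp5 held 0. The windows of Igfbp6 and Igfbp3 held none of the 4 motifs. A match is only a run of letters. Igfbp2 and Igfbp5 are neighbours on chromosome 9.

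**Figure D1:**
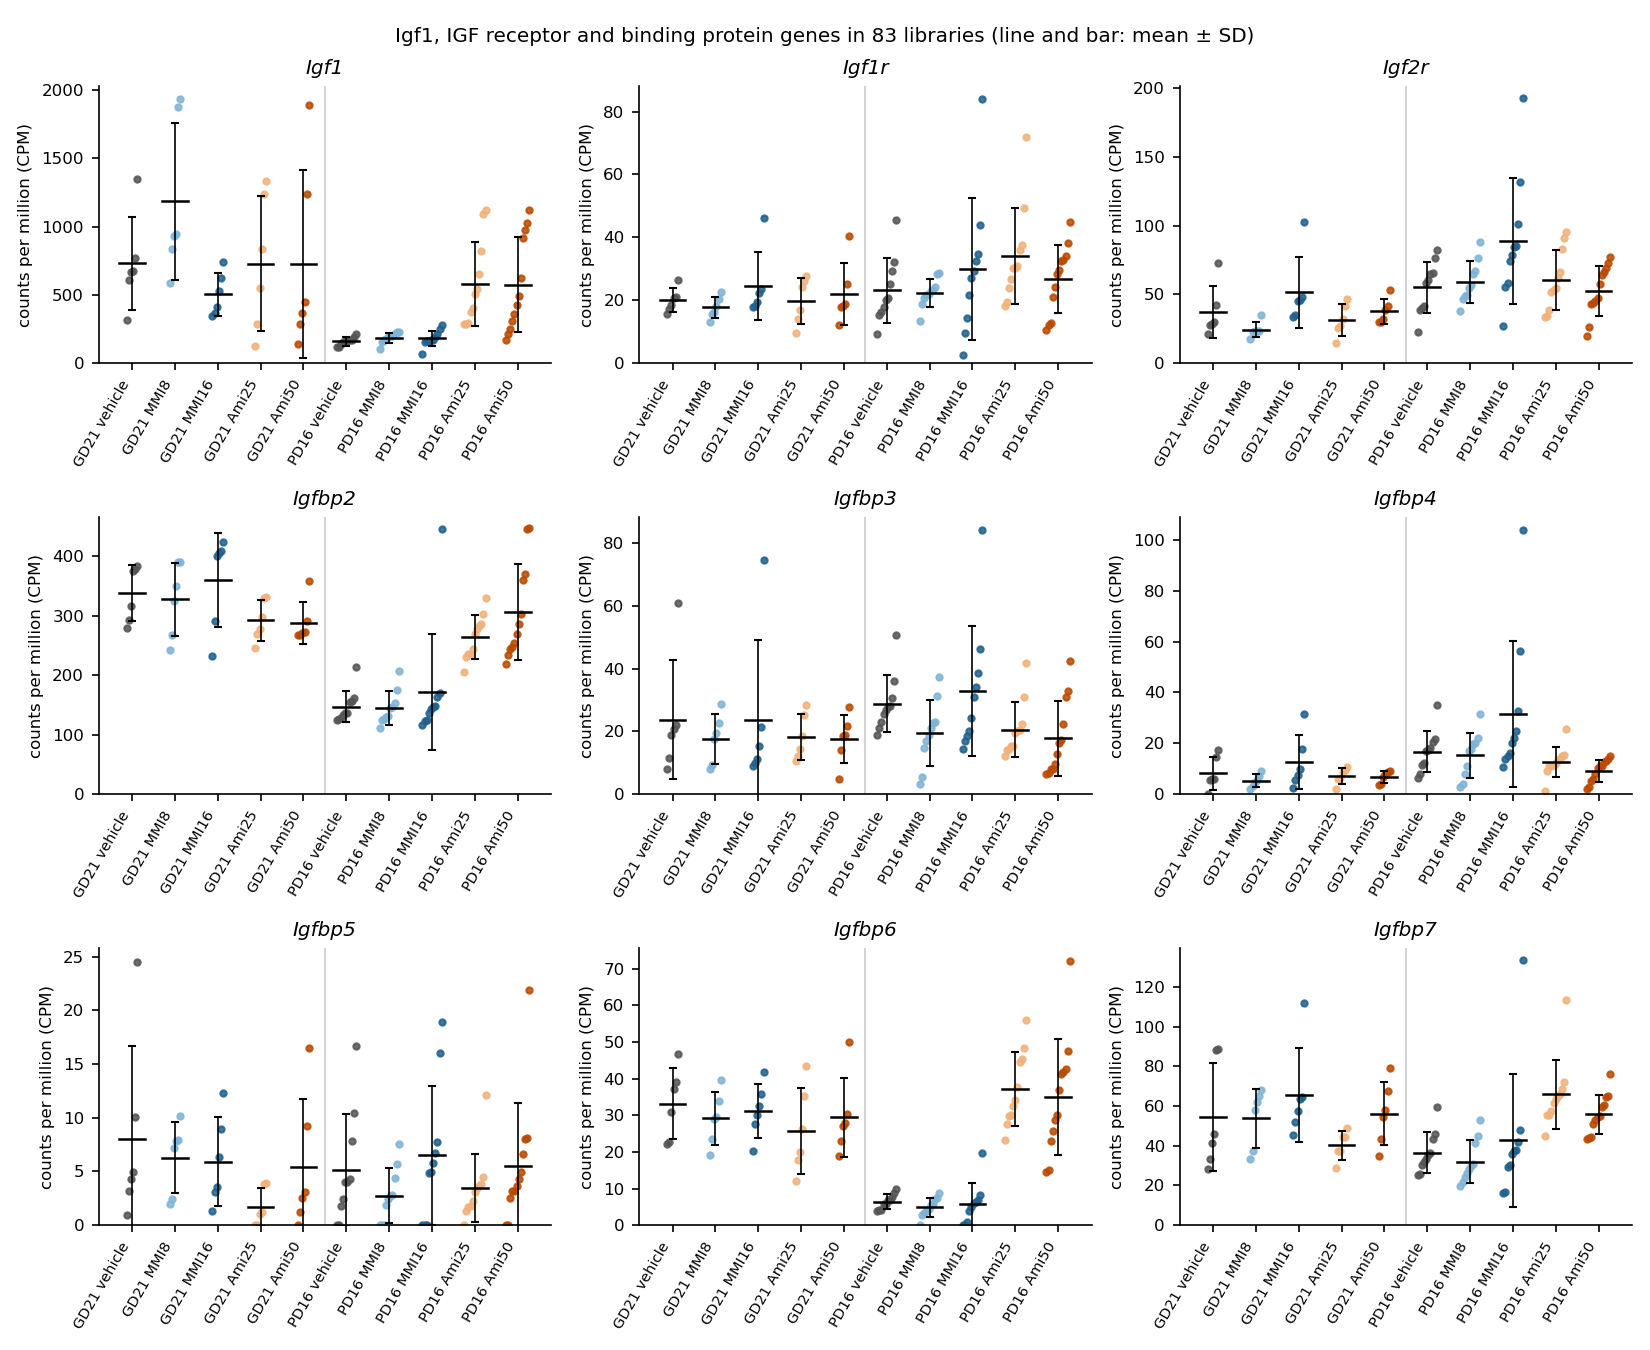
CPM of each of the 9 genes in each of the 83 libraries (points), by group, with the group mean (horizontal line) and SD (bar). Igf1, Igfbp2 and Igfbp6 sit low in PD16 vehicle, MMI8 and MMI16 and high in the GD21 and the PD16 amitrole groups; 1 PD16 MMI16 library, replicate 10, is the highest of its group in 7 of the 9 panels.

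Igf1 was low in 3 of the 10 groups. In PD16 vehicle the lowest, median and highest libraries had 115, 161 and 214 CPM, and the mean was 159 ± 30.7 (SD, n = 10). PD16 MMI8 ran from 104 through a median of 195 to 229 CPM, and PD16 MMI16 from 65.0 through 169 to 277. These 3 groups overlapped throughout, and their means, 159, 186 and 181 CPM, lay within 1 SD of each other.

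The PD16 amitrole libraries lay higher. In PD16 Ami25, Igf1 ran from 284 through a median of 506 to 1123 CPM, with a mean of 581 ± 310 (SD, n = 11), and no library overlapped with PD16 vehicle. In PD16 Ami50 it ran from 168 through 458 to 1125 CPM, with a mean of 574 ± 349 (SD, n = 12). Here the lowest library fell inside the vehicle range, while all 12 lay above the vehicle mean. Because these are bulk samples, more cells that express a gene and more RNA per cell cannot be told apart, for Igf1 or for any other gene below.

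At GD21 every group mean lay above those of the 3 low PD16 groups, with a wide spread. Igf1 averaged 732 ± 341 CPM in vehicle, 1186 ± 574 in MMI8, 504 ± 158 in MMI16, 729 ± 495 in Ami25 and 728 ± 688 in Ami50 (SD, n = 6 each). Ordered by mean, the levels fell from GD21 MMI8 through GD21 vehicle, GD21 Ami25, GD21 Ami50, PD16 Ami25, PD16 Ami50 and GD21 MMI16 to PD16 MMI8, PD16 MMI16 and PD16 vehicle. No 2 neighbours in that order differed by more than the larger of their SDs, except GD21 MMI16 and PD16 MMI8, whose libraries did not overlap (343 to 743 against 104 to 229 CPM).

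The spread of Igf1 was itself unequal between groups. The coefficient of variation (SD over mean) was 0.945 in GD21 Ami50 and 0.678 in GD21 Ami25, higher than in 98.7% and 99.0% of genes averaging at least 20 CPM in those groups. In PD16 Ami50 it was 0.608 and in PD16 Ami25 0.533, higher than in 97.5% and 95.1% of such genes. GD21 vehicle and GD21 MMI8 were at 0.465 and 0.484, each higher than in 95.6% of such genes, so a high spread was not limited to amitrole. In PD16 vehicle and PD16 MMI8 it was 0.193 and 0.201, higher than in only 39.4% and 39.2%. For Igfbp2 the coefficient was 0.124 in GD21 Ami50, where it exceeded that of 17.7% of genes.

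Part of the Igf1 spread ran with the library numbers in the sample titles, which the labels do not call batches. In GD21 Ami50, libraries 55 and 56 had 1238 and 1892 CPM, while libraries 87 to 90 had between 144 and 445. In GD21 Ami25, libraries 51 to 54 had between 553 and 1332 CPM, while 81 and 82 had 290 and 126. GD21 MMI16 had the same order, with 415 to 743 CPM for libraries 47 to 50 and 367 and 343 for 71 and 72. GD21 vehicle and GD21 MMI8 showed the opposite order, with medians of 638 and 768 CPM for the libraries numbered 41 to 56 and of 1062 and 1405 for those numbered from 57. Whether a number stands for a litter, a plate or a dissection is not given in the sources used here. After group means were subtracted, log2 Igf1 correlated at r = -0.12 with the summed liver markers and at 0.26 with the mesenchyme markers over the 83 libraries.

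**Figure D2:**
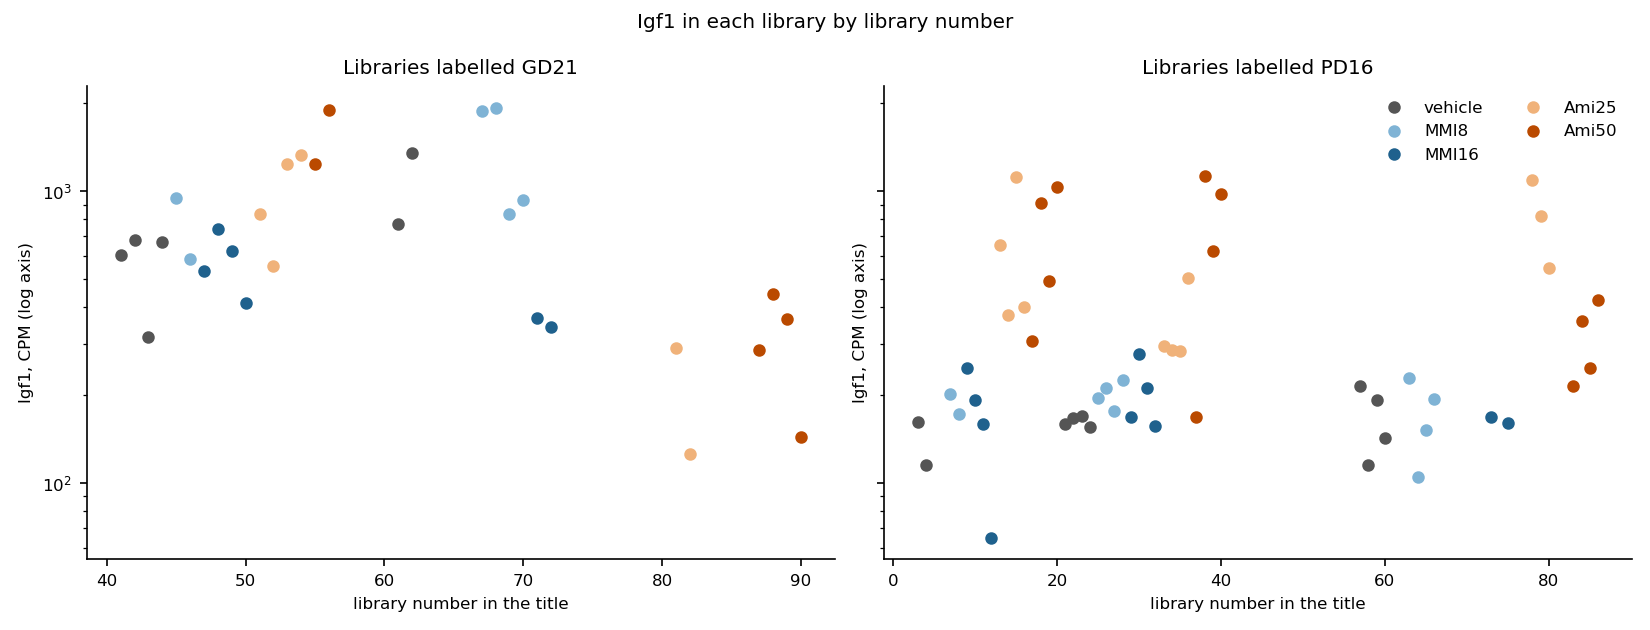
Igf1 in CPM (vertical log axis) against the library number in the sample title, for libraries labelled GD21 (left) and PD16 (right), coloured by treatment, 1 point per library. At GD21, Ami25 and Ami50 libraries numbered above 80 lie between 126 and 445 CPM, below those numbered 51 to 56, which lie between 553 and 1892 CPM.

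Igf1r, the gene of the signalling receptor, had group means that ran from 17.8 ± 3.39 CPM in GD21 MMI8 (SD, n = 6) to 34.1 ± 15.3 in PD16 Ami25 (SD, n = 11). PD16 vehicle ran from 9.42 through a median of 20.4 to 45.4 CPM, and PD16 Ami25 from 18.3 through 30.3 to 72.0. The ranges of these groups overlapped. Within groups Igf1r fell as the library total rose (r = -0.55 on log2 scales over 83 libraries), and the shallowest library, PD16 MMI16 replicate 10 with 202270 counts, had the highest value of all, 84.0 CPM.

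Igf2r, the gene of the IGF-2 scavenging receptor, ranged from 24.3 ± 5.63 CPM in GD21 MMI8 (SD, n = 6) to 88.9 ± 46.0 in PD16 MMI16 (SD, n = 10). PD16 vehicle ran from 22.9 through a median of 59.3 to 82.0 CPM and PD16 MMI16 from 27.0 through 81.7 to 193. Igf2r also fell with the library total within groups (r = -0.60) and moved with the summed endothelium markers (r = 0.63). Their part in the differences of either receptor gene was not tested beyond fits without the shallowest library, given below.

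The 3 PD16 groups low in Igf1 had embryonic globin medians of 14.1% to 16.8%, against at most 0.180% in every other group. Igfbp2, the gene of a binding protein that is abundant before birth, was low in the same 3 PD16 groups. PD16 vehicle ran from 125 through a median of 136 to 213 CPM, PD16 MMI8 from 112 through 138 to 206, and PD16 MMI16 from 116 through 145 to 445. In PD16 MMI16, all libraries but replicate 10 lay at or under 169 CPM. PD16 Ami25 ran from 205 through 269 to 329 CPM, and PD16 Ami50 from 219 through 277 to 447, with no library of Ami50 inside the vehicle range. GD21 means lay between 288 ± 35.7 CPM in Ami50 and 360 ± 78.8 in MMI16 (SD, n = 6 each). In the order of means, PD16 Ami50 (306 ± 80.3) and PD16 Ami25 (263 ± 36.7) stood among or next to the GD21 groups. PD16 MMI16 (172 ± 97.6), PD16 vehicle (147 ± 26.7) and PD16 MMI8 (145 ± 27.8) formed the low end. Among the GD21 groups no 2 neighbours differed by more than the larger of their SDs. Within groups Igfbp2 rose with the library total (r = 0.43).

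Igfbp6, the gene of the binding protein that prefers IGF-2, fell into a low and a high set of groups. PD16 vehicle ran from 3.85 through a median of 6.42 to 9.76 CPM, PD16 MMI8 from 0 through 4.92 to 8.81, and PD16 MMI16 from 0 through 5.53 to 19.8. PD16 Ami25 ran from 23.2 through 34.1 to 56.1 CPM and PD16 Ami50 from 14.6 through 33.6 to 72.1. Both amitrole groups lay above every PD16 vehicle library. The low groups rest on few reads, with 40 counts in all of PD16 vehicle, 22 in PD16 MMI8 and 22 in PD16 MMI16, against 225 in PD16 Ami25 and 223 in PD16 Ami50. GD21 means lay between 25.8 ± 11.7 CPM in Ami25 and 33.2 ± 9.75 in vehicle (SD, n = 6 each), within the range of both PD16 amitrole groups.

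Igfbp7, the gene of the weakly binding matrix protein, was also higher in the PD16 amitrole libraries, by a smaller step. PD16 vehicle ran from 25.0 through a median of 34.2 to 59.3 CPM, PD16 Ami25 from 45.2 through 63.7 to 114, and PD16 Ami50 from 43.5 through 54.8 to 76.0. The ranges overlapped, and all amitrole libraries lay above the vehicle mean of 36.6 ± 10.4 (SD, n = 10). PD16 MMI8 averaged 32.0 ± 10.8 CPM (SD, n = 10) and PD16 MMI16 42.7 ± 33.4 (SD, n = 10), and GD21 means lay between 40.2 ± 7.29 and 65.7 ± 23.7 (SD, n = 6 each).

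Igfbp3 and Igfbp4 were lower in PD16 Ami50 than in vehicle. Igfbp3 encodes the main carrier of IGFs in blood, and its PD16 vehicle libraries ran from 18.8 through a median of 27.4 to 50.6 CPM. PD16 Ami50 ran from 6.34 through 14.5 to 42.5, so the groups overlapped, and 9 of 12 Ami50 libraries lay below the vehicle mean. Igfbp4, whose protein mostly inhibits IGF action, ran from 6.5 through 17.2 to 34.9 CPM in PD16 vehicle. In PD16 Ami50 it ran from 2.13 through 10.7 to 14.9 CPM, with all 12 libraries below the vehicle mean. Over the 10 groups, mean Igfbp3 lay between 17.6 and 32.9 CPM, and mean Igfbp4 between 5.28 and 31.6, with PD16 MMI16 the highest for both. Without replicate 10, the PD16 MMI16 libraries ended at 46.2 CPM for Igfbp3 and at 56.1 for Igfbp4.

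Igfbp5, which encodes a binding protein tied to the extracellular matrix, was close to the detection limit. It gave 338 counts over all 83 libraries and no count in 14 of them. Its group means lay between 1.67 and 7.99 CPM, with SDs from 1.79 to 8.65, and it passed the filter on low counts at neither stage. With no filter it was tested and called in none of the 19 comparisons, so no difference in Igfbp5 was detectable at this depth. Igfbp4 passed the filter at PD16 but not at GD21, so 8 of the 9 genes were tested at PD16 and 7 at GD21.

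The first comparison set each treated group against vehicle at PD16, by edgeR's quasi-likelihood test with p-values adjusted over 4906 genes. Neither methimazole dose gave a call among the 8 genes tested, against a background of 8.36% of all genes called for MMI8 and 8.11% for MMI16. At an unadjusted p under 0.05, 1 and 2 of the 8 passed, and 834 and 774 of all genes. DESeq2 also called 0 at both doses. The 1 gene for MMI8 was Igfbp3, with a log2 difference of -0.57 ± 0.26 (SE) and an adjusted p of 0.236. The 2 for MMI16 were Igf2r (0.52 ± 0.20, adjusted p = 0.134) and Igfbp4 (0.70 ± 0.29, adjusted p = 0.176). Without replicate 9 of MMI16, the only PD16 MMI16 library with Alb above 200 CPM, Igf2r was called at a log2 difference of 0.63 and an adjusted p of 0.0252. For Igf1 the 95% interval of the log2 difference ran from -0.44 to 0.81 for MMI8 and from -0.43 to 0.81 for MMI16.

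The same 4 genes were higher than in vehicle in both PD16 amitrole groups, where treatment and developmental stage cannot be told apart, as given above. In Ami25, 4 of the 8 genes tested were higher and 0 lower, where 27.9% of all genes were higher and 27.5% lower. Igf1 was 3.77-fold higher (log2 difference 1.91 ± 0.29 SE, adjusted p = 1.89e-07) and Igfbp6 was 6.31-fold higher (2.66 ± 0.26, adjusted p = 8.77e-14). Igfbp2 was 1.86-fold higher (0.90 ± 0.15, adjusted p = 1.75e-06) and Igfbp7 1.82-fold higher (0.86 ± 0.18, adjusted p = 3.24e-05). All 11 libraries lay above the vehicle mean for each of the 4. With 8 genes tested, the 4 calls are to be read against that background.

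Igf1r and Igfbp3 lay near the threshold in Ami25. Igf1r had a log2 difference of 0.55 ± 0.26 (adjusted p = 0.0632) and Igfbp3 one of -0.53 ± 0.25 (adjusted p = 0.0603). Igf1r was called without vehicle replicate 4 (0.69, adjusted p = 0.0217) and without Ami25 replicate 15, 35 or 80 (adjusted p = 0.0375, 0.04995 and 0.0441). Igfbp3 was called without vehicle replicate 3 or 21 (adjusted p = 0.0443 and 0.0436) and without Ami25 replicate 36 or 79 (adjusted p = 0.0399 and 0.0340). With only the compared libraries fitted, both genes were called (adjusted p = 0.0407 for Igf1r and 0.0204 for Igfbp3). Igf1r was also called without the libraries that reached 200 CPM of Alb (0.0446). Igfbp3 was also called without the shallow MMI16 replicate 10 (0.0456) and without the libraries low in Eif2s3y (0.0467).

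In Ami50, 4 of the 8 genes were higher, where 27.1% of all genes were, and 2 were lower, where 26.5% were. Igf1 was 3.90-fold higher (1.96 ± 0.29, adjusted p = 7.89e-08), Igfbp6 5.96-fold (2.58 ± 0.26, adjusted p = 2.78e-13), Igfbp2 2.27-fold (1.18 ± 0.15, adjusted p = 1.32e-09) and Igfbp7 1.63-fold (0.71 ± 0.18, adjusted p = 0.000519). Igfbp3 was 1.66-fold lower (-0.73 ± 0.25, adjusted p = 0.0112) and Igfbp4 1.82-fold lower (-0.87 ± 0.35, adjusted p = 0.0313). The receptor genes were not called, at log2 differences of 0.18 ± 0.26 for Igf1r and -0.04 ± 0.21 for Igf2r. The 4 higher genes kept their calls when any single library of the 2 groups was left out. The Igfbp4 call was lost without vehicle replicate 4 (-0.70, adjusted p = 0.0901), Ami50 replicate 17 (-0.72, adjusted p = 0.0783) or Ami50 replicate 20 (-0.75, adjusted p = 0.0668). The Igfbp3 call was lost without the 8 Ami50 libraries low in Eif2s3y (-0.71, adjusted p = 0.0858). Both amitrole comparisons share the same vehicle libraries.

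Several summed cell type markers also differed between PD16 Ami50 and PD16 vehicle. Median summed adrenal cortex markers were 57617 CPM in PD16 Ami50 (30022 to 77727) against 21643 in PD16 vehicle (19818 to 31002), and all 9 genes of the list had counts in both groups. Medulla markers (8 of 9 in the table, all with counts) had medians of 1294 CPM (1068 to 1671) against 886 (757 to 986). Endothelium markers went the other way, with 264 CPM (212 to 387) against 671 (552 to 804), while macrophage markers had 289 (234 to 509) against 191 (171 to 225). Cortex medians were also low in PD16 MMI8 (28661 CPM) and PD16 MMI16 (26604). They were high in PD16 Ami25 (52643) and the GD21 groups (39817 to 45381). Medulla medians were 920 CPM in PD16 MMI8, 859 in PD16 MMI16, 1254 in PD16 Ami25 and 1183 to 1417 at GD21. Macrophage medians were 131 CPM (95.2 to 160) in PD16 MMI8 and 132 (97.5 to 166) in PD16 MMI16. They were 314 in PD16 Ami25 and 412 to 642 at GD21. By median, these lists thus split the groups as Igf1 did. The endothelium list did not, with medians also below vehicle in PD16 MMI8 (349 CPM, 288 to 448) and PD16 MMI16 (360, 255 to 524). Mesenchyme markers overlapped widely, at 3917 CPM (2141 to 7543) against 3326 (2690 to 4475). Their part in the differences of the IGF genes was not tested.

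Means of Igf1 and Igfbp6 were also read within each of 3 sets of PD16 library numbers, which held 2, 4 and 4 vehicle libraries. Mean Igf1 was 138 CPM in vehicle and 686 in Ami50 among PD16 libraries numbered 3 to 20, 163 and 724 among those numbered 21 to 40, and 166 and 312 among those numbered 57 to 90. Igfbp6 means were 5.51 and 26.6, 5.34 and 30.5, and 7.82 and 47.8 CPM in the same sets. In Ami25 the means in these sets were 639, 343 and 820 CPM for Igf1 and 36.2, 39.1 and 36.1 for Igfbp6. The means of both amitrole groups lay above that of vehicle in all 3 sets for both genes.

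**Figure D3:**
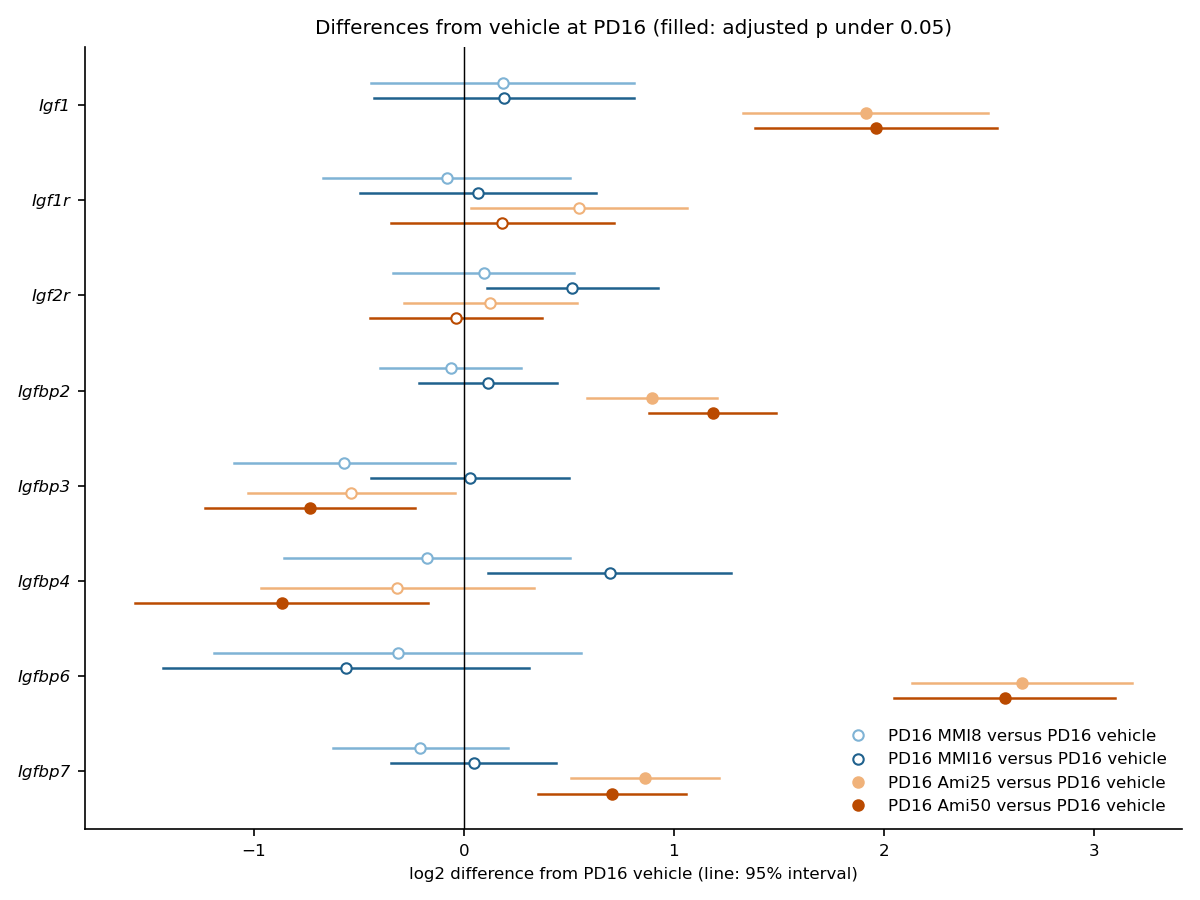
Log2 difference of each of the 8 tested genes from PD16 vehicle (horizontal axis) in the 4 treated PD16 groups; points are edgeR estimates, lines their 95% intervals, and filled points have an adjusted p under 0.05. Igf1, Igfbp2, Igfbp6 and Igfbp7 lie to the right for Ami25 and Ami50, and no methimazole point is filled.

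The doses of each compound were compared at PD16 only. Between Ami50 and Ami25 at PD16, 0 of 8 genes were called, as were 0% of all genes, and 1 of the 8 and 230 of all genes had an unadjusted p under 0.05; DESeq2 called 0 of the 8. The Igf1 interval ran from -0.47 to 0.56 on the log2 scale and the Igfbp6 interval from -0.46 to 0.29. Igfbp2 had the smallest unadjusted p, with a log2 difference of 0.29 ± 0.14 and an adjusted p of 0.899. Between MMI16 and MMI8, 0 of 8 genes were called, against 2.08% of all genes, with 2 of the 8 and 597 of all genes at an unadjusted p under 0.05 and 0 of the 8 by DESeq2. Those 2 were Igfbp4 (0.87 ± 0.32, adjusted p = 0.187) and Igfbp3 (0.60 ± 0.27, adjusted p = 0.338).

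The compounds were also set directly against each other, at doses that differ in mg/kg. Vehicle libraries entered these tests only through the shared filter, scaling and estimate of the spread. Ami25 lay above MMI8 for 4 of 8 genes and below it for 0, where 24.4% of all genes were higher and 24.2% lower. The 4 were Igf1 (1.73 ± 0.29, adjusted p = 2.84e-06), Igfbp2 (0.96 ± 0.16, adjusted p = 1.36e-06), Igfbp6 (2.97 ± 0.31, adjusted p = 1.15e-12) and Igfbp7 (1.07 ± 0.19, adjusted p = 5.27e-06). Igf1r lay near the threshold (0.63 ± 0.28, adjusted p = 0.0569). It was called with only the compared libraries fitted (adjusted p = 0.0102) and with the run of library numbers as a covariate (0.0489). It was also called without the shallow MMI16 replicate 10 (0.0442) and without the libraries that reached 200 CPM of Alb (0.0396). Ami50 lay above MMI16 for the same 4 genes, where 22.6% of all genes were higher, with log2 differences of 1.77, 1.07, 3.14 and 0.66. It lay below MMI16 for Igf2r (-0.55 ± 0.20, adjusted p = 0.0205), Igfbp3 (-0.76 ± 0.26, adjusted p = 0.0125) and Igfbp4 (-1.56 ± 0.33, adjusted p = 7.49e-05), where 24.9% of all genes were lower. Without the shallow MMI16 replicate 10 the Igf2r difference was -0.43 and not called (adjusted p = 0.0656). Without the libraries low in Eif2s3y the Igfbp3 difference was -0.73 and not called (adjusted p = 0.0896).

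At GD21 no gene of the set was called in any of the 4 treated groups. Of 7 genes tested, 0 were called in each comparison by edgeR and by DESeq2, and 0% of 6236 genes were called by edgeR. At an unadjusted p under 0.05 there were 1 of the 7 and 175 of all genes for MMI8, 0 and 210 for MMI16, 0 and 579 for Ami25, and 0 and 431 for Ami50. The 1 gene was Igf2r in MMI8, at 24.3 CPM against 37.2 in vehicle, with a log2 difference of -0.56 ± 0.27 and an adjusted p of 0.999. For Igf1 the precision was poor. Its 95% intervals on the log2 scale ran from -0.38 to 1.82 for MMI8, from -1.65 to 0.56 for MMI16, from -1.07 to 1.12 for Ami25 and from -1.08 to 1.11 for Ami50. The Igfbp2 intervals were narrower, from -0.46 to 0.07 for Ami25 and from -0.47 to 0.06 for Ami50.

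Next, the labelled stages were compared within each treatment, over 6287 genes. Median embryonic globin shares ran against the order of these labels in vehicle (14.1% at PD16, 0.157% at GD21). They did so too in MMI8 (16.1% and 0.110%) and MMI16 (16.8% and 0.168%). The differences are therefore between labels, and their direction in development cannot be read from the labels alone. In vehicle, Igf1, Igfbp2, Igfbp6 and Igfbp7 were lower in PD16 than in GD21 libraries and Igfbp4 was higher, where 22.1% of all genes were lower and 24.4% higher. The log2 differences were -2.32 ± 0.39 for Igf1 (adjusted p = 6.94e-07), -1.32 ± 0.15 for Igfbp2 (adjusted p = 1.38e-11), -2.51 ± 0.28 for Igfbp6 (adjusted p = 2.42e-12) and -0.68 ± 0.20 for Igfbp7 (adjusted p = 0.00393). For Igf1, Igfbp2 and Igfbp6 the vehicle libraries of the 2 stages did not overlap. How many of all genes did not overlap was not counted, here or in the comparisons above. The Igfbp4 difference was 0.91 ± 0.38 (adjusted p = 0.0406), a call that 9 of 10 alternative fits did not make (adjusted p from 0.0517 to 0.0973).

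The same 4 genes were lower at PD16 in both methimazole groups. In MMI8 the log2 differences were -2.88 for Igf1, -1.39 for Igfbp2, -2.70 for Igfbp6 and -0.97 for Igfbp7, and 26.3% of all genes were lower. In MMI16 they were -1.62, -1.34, -2.99 and -0.93, and 24.4% of all genes were lower. Igfbp4 was higher at PD16 in MMI8 (1.15 ± 0.45, adjusted p = 0.0280) and MMI16 (1.11 ± 0.36, adjusted p = 0.00759), and Igf2r was higher in MMI8 (1.06 ± 0.26, adjusted p = 0.000472). The share of all genes that were higher was 22.4% in MMI8 and 22.6% in MMI16. Without the libraries that reached 200 CPM of Alb, Igf2r was also called in vehicle (0.72, adjusted p = 0.0275) and MMI16 (0.92, adjusted p = 0.00136), and Igfbp3 in MMI16 (1.03, adjusted p = 0.00866).

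In the amitrole groups fewer of these genes were called between the labelled stages. In Ami25, 1 of 8 genes was called, Igf2r, higher at PD16 (0.76 ± 0.26, adjusted p = 0.0375), where 4.12% of all genes were higher and 7.13% lower. With the run of library numbers as a covariate, Igf2r was not called (adjusted p = 0.0908) and Igfbp2 was, lower at PD16 (-0.46, adjusted p = 0.0434). In Ami50, 0 of 8 were called by edgeR or DESeq2, against 7.86% of all genes, and 0 of the 8 and 1123 of all genes had an unadjusted p under 0.05. The log2 differences in Ami50 were -0.41 ± 0.36 for Igf1, 0.02 ± 0.15 for Igfbp2, 0.14 ± 0.22 for Igfbp6 and -0.12 ± 0.19 for Igfbp7. Their intervals reached from -1.13 to 0.31 for Igf1 but only from -0.27 to 0.32 for Igfbp2.

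Whether the stage difference itself depended on treatment was tested with an interaction term. The stage difference of Ami50 minus that of vehicle was positive for 3 of 8 genes and negative for 0, where 16.4% of all genes were higher and 16.4% lower. It was 1.90 ± 0.54 for Igf1 (adjusted p = 0.00403), 1.35 ± 0.22 for Igfbp2 (adjusted p = 3.33e-07) and 2.65 ± 0.36 for Igfbp6 (adjusted p = 2.79e-09). For Igfbp7 it was 0.56 ± 0.28 and not called (adjusted p = 0.122). Without the libraries that reached 200 CPM of Alb, the Igf1 value was 1.30 and not called (adjusted p = 0.136). For MMI16, 0 of 8 genes were called by edgeR or DESeq2, against 5.22% of all genes, with 0 of the 8 and 634 of all genes at an unadjusted p under 0.05. Vehicle libraries of both stages enter each of these terms, and their embryonic globin medians (14.1% at PD16, 0.157% at GD21) went against the labelled order. Those of MMI16 did too (16.8% and 0.168%), while those of Ami50 were alike (0.130% and 0.161%).

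**Figure D4:**
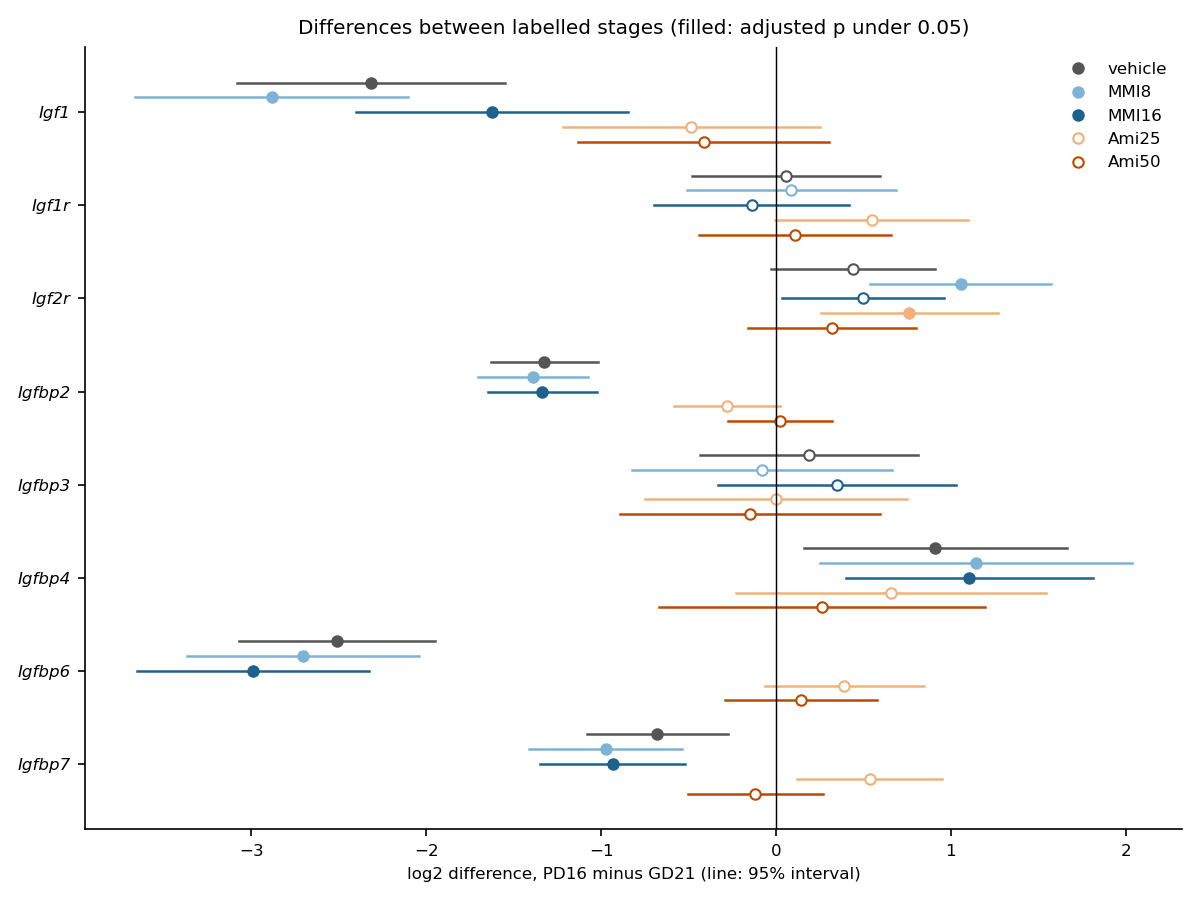
Log2 difference between libraries labelled PD16 and GD21 (horizontal axis, PD16 minus GD21) for the 8 tested genes in each of the 5 treatments, with 95% intervals (lines) and filled points for an adjusted p under 0.05. Igf1, Igfbp2 and Igfbp6 lie far to the left in vehicle, MMI8 and MMI16 and near 0 in Ami25 and Ami50.

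Other genes of the pathway were read from 4 lists. Of 11 further ligand, receptor and IGF-related genes, 2 passed the filter at PD16, and both were lower in Ami50, where 26.5% of all genes were. Igf2, the fetal growth factor, had medians of 168 CPM in PD16 vehicle (139 to 282) and 82.2 in PD16 Ami50 (49.1 to 221), a log2 difference of -0.95 ± 0.23 (adjusted p = 0.000507). Igf2bp2, which encodes an RNA-binding protein named after the Igf2 transcript, had one of -1.64 ± 0.23 (adjusted p = 1.16e-08). So Igf1 and Igf2 went in opposite directions between these groups. Insr, the insulin receptor gene, gave 47 counts in all libraries and did not pass the filter. In PD16 MMI16, 0 of the 2 were called, against 8.11% of all genes. In PD16 MMI8, where 8.36% of all genes were called, Igf2bp2 was lower (-0.66 ± 0.22, adjusted p = 0.0406). Between vehicle libraries of the 2 stages, Igf2bp2 was higher at PD16 (0.67 ± 0.21, adjusted p = 0.00630).

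Of 15 genes for proteases that can cut binding proteins, and their inhibitors, 9 were tested at PD16. In Ami50, 4 were higher and 2 lower than in vehicle, against 27.1% and 26.5% of all genes. The higher ones included Htra1, a secreted serine protease (log2 difference 2.29 ± 0.29, adjusted p = 5.35e-10), Ctsd, the lysosomal protease cathepsin D (1.92 ± 0.10, adjusted p = 1.66e-24), and C1s, a serine protease of the complement system (1.43 ± 0.29, adjusted p = 2.12e-05). The lower ones were the metalloprotease genes Adamts9 (-1.03 ± 0.28, adjusted p = 0.00167) and Mmp2 (-0.57 ± 0.23, adjusted p = 0.0279). The median log2 difference of the 9 was 0.11, against 0.02 over all genes tested. In PD16 MMI16, 0 of the 9 were called, against 8.11% of all genes. In vehicle, PD16 libraries were lower than GD21 libraries for 4 of the 9, led by Htra1 (-2.63), Ctsd (-1.54) and C1s (-1.37), and higher for 2, Adamts9 (0.84) and Mmp2 (0.81), against 22.1% and 24.4% of all genes.

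Of 34 genes of receptor signalling, 15 were tested at PD16, and in Ami50 1 was higher and 3 were lower than in vehicle, against 27.1% and 26.5% of all genes. Map2k1, a kinase of the MAP kinase cascade, was the higher one (0.64 ± 0.20, adjusted p = 0.00696). The lower ones included Gsk3b, a kinase that AKT inhibits (-0.83 ± 0.22, adjusted p = 0.00130), and Grb10, an adaptor that dampens insulin and IGF receptor signals (-0.81 ± 0.12, adjusted p = 5.94e-08). In MMI16, where 8.11% of all genes were called, Grb10 alone was, at 341 CPM against 432 in vehicle (-0.44 ± 0.13, adjusted p = 0.0134). In MMI8, where 8.36% of all genes were called, Grb14, an adaptor related to Grb10, was lower (-1.14 ± 0.37, adjusted p = 0.0404). Grb10 in MMI8 had a log2 difference of -0.37 ± 0.13 (adjusted p = 0.0561). The median of the 15 was -0.06 in Ami50 and 0.10 in MMI16, against 0.02 and 0.07 over all genes. Between vehicle libraries of the 2 stages, 18 could be tested. Gab1 (1.10), Grb10 (0.57) and Mapk3 (0.56) were higher at PD16, where 24.4% of all genes were. Shc1 (-2.30), Eif4ebp1 (-0.73) and Map2k1 (-0.61) were lower, where 22.1% of all genes were.

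Of 9 genes of growth hormone and prolactin signalling, 2 were tested at PD16 and both were higher in Ami50, where 27.1% of all genes were. Prlr, the prolactin receptor gene, had a log2 difference of 1.59 ± 0.32 (adjusted p = 2.98e-05), and Cish, a target and inhibitor of STAT5 signalling, one of 1.5 ± 0.32 (adjusted p = 8.43e-05). Both were lower in PD16 than in GD21 vehicle libraries (log2 differences of -1.51 and -1.61), where 22.1% of all genes were. Neither was called in PD16 MMI16, against 8.11% of all genes. Ghr, the growth hormone receptor gene, gave 190 counts over all 83 libraries and did not pass the filter.

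The genes whose levels most resembled each member over the 83 libraries were found by Pearson's r of log2 CPM among 4022 genes averaging at least 20 CPM. These coefficients describe libraries that share groups, runs and depth, and carry no test. For Igf1 they were Asgr1, a receptor gene best known from hepatocytes (r = 0.80), Hist2h2aa3 (0.79) and Serpina11 (0.79), which dropped to 0.40, 0.45 and 0.41 once group means were subtracted. For Igfbp2 they were Chchd10 (0.93), Mrpl37 (0.92) and Fdxr (0.91), genes of mitochondrial proteins, at 0.67, 0.66 and 0.55 without group means. For Igfbp6 they were Cmbl (0.90), Fdxr (0.88) and Pnmt (0.88), the adrenaline-making enzyme of the adrenal medulla, at 0.39, 0.35 and 0.38. Igfbp7 lay closest to Igfbp2 (0.72), Plpp1 (0.72) and App (0.71).

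Igfbp3 had its closest genes in Igf2 (0.58), H19 (0.56), an imprinted neighbour of Igf2, and Pkdcc (0.54), and these changed little without group means, to 0.57, 0.54 and 0.51. The receptor genes lay closest to Farp1 (0.63), Gna12 (0.63) and Capns1 (0.62) for Igf1r, and to Flna (0.72), Eif4h (0.72) and Canx (0.71) for Igf2r. Both receptor genes followed library depth, as given above.

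Among the members themselves, Igfbp2 and Igfbp6 had an r of 0.81 over all libraries, Igf1 and Igfbp2 one of 0.71, and Igf1 and Igfbp6 one of 0.70. Within groups, after subtraction of group means, these were 0.19, 0.13 and 0.14. Igf1 thus had a within-group r between -0.20 and 0.14 with each of the other 7 genes tested. The highest within-group values were 0.48 for Igfbp2 with Igfbp7, 0.48 for Igf2r with Igfbp3 and 0.47 for Igf1r with Igf2r.

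**Figure D5:**
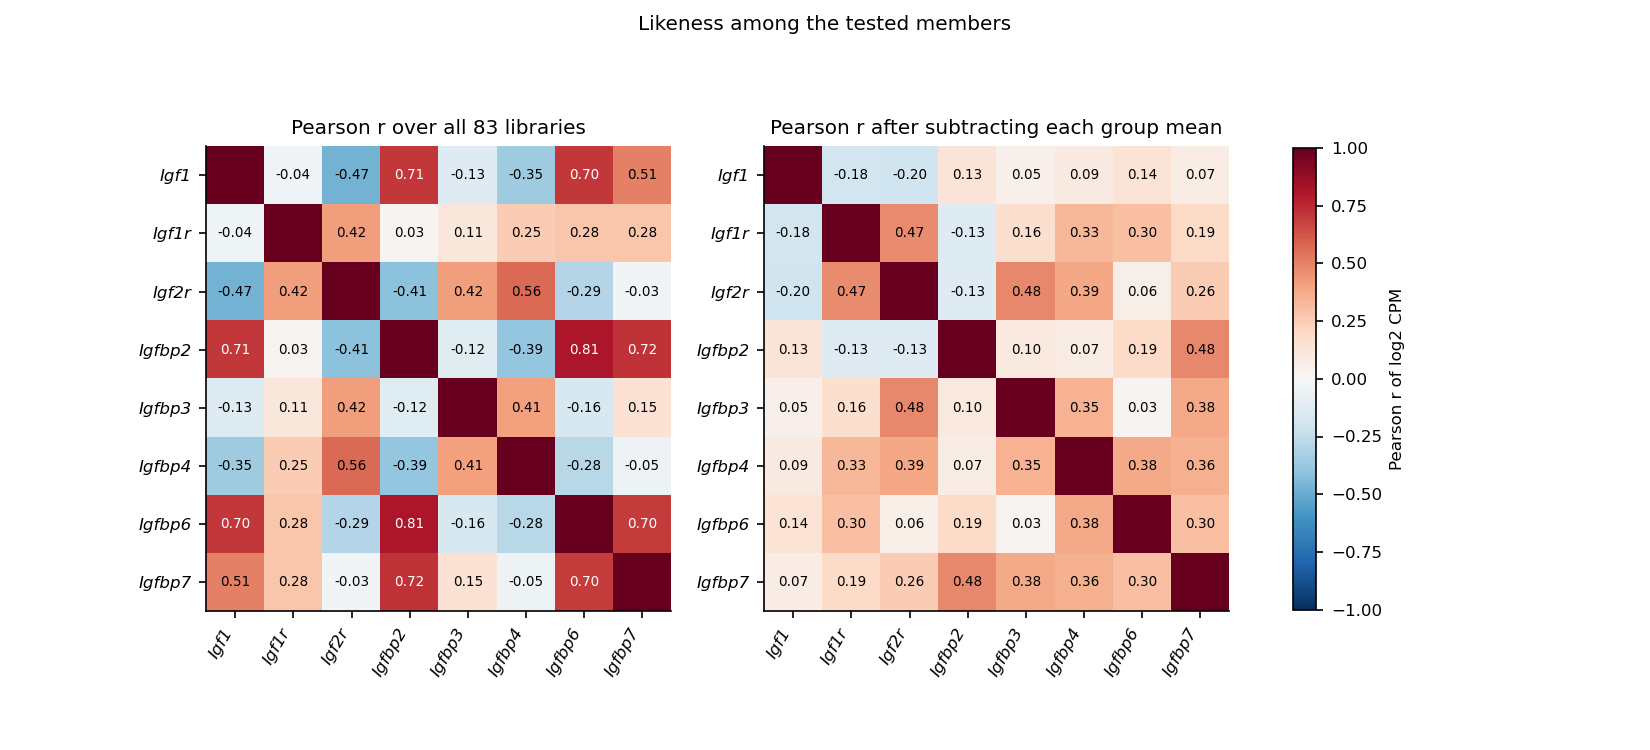
Pearson's r of log2 CPM between each pair of the 8 tested genes over 83 libraries (left) and after each group's mean was subtracted (right); colour runs from -1 (blue) to 1 (red). The block of Igf1, Igfbp2 and Igfbp6 at 0.70 to 0.81 on the left is at 0.13 to 0.19 on the right.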

How the data were processed

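The 83 BRB-seq libraries were grouped by labelled stage and treatment. Raw counts, by gene symbol and library, are what the deposited table gives, per the labels. Per the submitters' processing notes, the authors aligned reads to rn6 with BWA. How reads were counted (tool, annotation, strand, molecular barcodes) is not given in the sources used here, so counts may hold PCR copies, and reads of overlapping genes cannot be told apart. Litter identity is not given either.

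CPM is the count divided by the library total, times 1000000. Comparisons used edgeR 4.0.16 (R 4.3.3) on the deposited counts: quasi-likelihood F tests with robust dispersion, TMM scaling, a filter on low counts (filterByExpr, minimum count 10) and p-values adjusted by Benjamini-Hochberg over all genes tested, with a call under 0.05. Each fit held the 5 groups of its stage, or all 10 groups for stage and interaction terms. Errors on log2 differences are SE, and intervals are 95%. Correlations used log2 CPM with a prior count of 2. The scripts were tested on simulated data. DESeq2 1.42.0 was an alternative, beside other scalings, filters and fits, sets of libraries left out and each PD16 library left out in turn. Over 331 pairs of libraries of one group, none had counts as alike as sampling noise (lowest chi-square per degree of freedom 1.565).

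The members and the gene and marker lists were chosen with earlier results of these data known. Named from the 4 pathway lists were up to 3 called genes in each direction with the largest log2 change, for PD16 MMI16 and Ami50 against vehicle and for vehicle between stages, with Igf2, Insr and Ghr whatever their result. One gene that this rule names is not reported here. For likeness, the 3 genes with the highest r were named for each member averaging at least 20 CPM. Promoter windows came from RefSeq on GRCr8, another build than rn6, so no coordinate was joined to the counts, and all 9 genes matched by symbol. Figures were drawn with matplotlib 3.10.9.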

Additional observations from a re-analysis of the deposited data

Results flagged for a closer look

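Of 72 gene and group combinations with 4 to 10 libraries, 16 held a library far above the others of its group by Dixon's criterion. Chance gives about 5% for independent, normally distributed values. The genes share libraries and normality was not tested, so the 16 cannot be set against that rate. Most of the 16 came from 2 libraries. PD16 MMI16 replicate 10, the shallowest library, stood out for Igf1r (84.0 CPM), Igfbp2 (445), Igfbp3 (84.0), Igfbp4 (104), Igfbp6 (19.8) and Igfbp7 (133). GD21 MMI16 replicate 47, in which Alb reached 3168 CPM, stood out for Igf1r (46.3 CPM), Igf2r (103), Igfbp3 (74.6) and Igfbp7 (112).

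The other 6 values lay in 5 libraries. PD16 vehicle replicate 4 stood out for Igfbp2 (213 CPM) and Igfbp4 (34.9). GD21 vehicle replicate 62, in which Alb reached 1929 CPM, stood out for Igfbp3 (60.8 CPM). GD21 MMI8 replicate 45, in which Alb reached 10976 CPM, stood out for Igf2r (34.7 CPM). GD21 Ami50 replicate 56 stood out for Igfbp2 (358 CPM) and replicate 55 for Igfbp6 (49.9 CPM). PD16 Ami25 and Ami50 have over 10 libraries and were not examined in this way.

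The log2 difference between Ami50 and vehicle was larger at PD16 than at GD21 by 1.90 for Igf1, 1.35 for Igfbp2 and 2.65 for Igfbp6, each called by edgeR's interaction test (adjusted p = 0.00403, 3.33e-07 and 2.79e-09, in that order). Without the libraries that reached 200 CPM of Alb, the Igf1 value was 1.30 and not called (adjusted p = 0.136). The embryonic globin share of PD16 vehicle (median 14.1%) and of PD16 Ami50 (0.130%) differed in the same comparison, and its part was not tested.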

How the results depend on the processing

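Where a value could be computed, no called difference changed direction under the 10 alternatives or with any single PD16 library left out. The count of members called stayed within 1.5 times the reported one in all 19 comparisons under DESeq2, DESeq2's size factors, the older quasi-likelihood fit, a filter at a mean of 10 CPM, a covariate for the run of library numbers, and without the shallow library or those low in Eif2s3y. For Ami25 between stages the count of 1 became 0 with no filter on low counts, where more genes were tested, and 2 when only the compared libraries were fitted, which added Igfbp7 (0.55, adjusted p = 0.0151); the cause of the second change was not tested. For PD16 MMI16 against vehicle the count of 0 became 1 (Igf2r, 0.64, adjusted p = 0.0293) without the libraries that reached 200 CPM of Alb. Leaving out each library in turn gave counts of 0 to 0 for MMI8, 0 to 1 for MMI16, 4 to 5 for Ami25 and 5 to 6 for Ami50, and Igf1 differences of 1.76 to 1.99 in Ami25 and 1.81 to 2.05 in Ami50. Calls lost and not given above were Igfbp4 between stages in MMI8 with no filter (adjusted p = 0.0634) and in MMI16 with only the compared libraries (0.0505), and Igf2r between stages in Ami25 with no filter (0.0876) and with the run covariate (0.0908), which instead called Igfbp2 (-0.46, adjusted p = 0.0434). No paired analysis was possible because each library carries its own number and no number is shared between groups. Of 41 called differences, 4 had no value with only the compared libraries fitted, since the gene did not pass the filter there: Igfbp4 in PD16 Ami50 against vehicle and against MMI16, and Igfbp4 and Igfbp6 between stages in MMI8. Depth limits Igfbp5 at both stages and Igfbp4 at GD21, which did not pass the filter and were not called without it.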

Other observations

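Over the 10 groups, the means of Igf2 had another order than those of Igf1. Its GD21 group means lay between 131 ± 38.1 CPM in Ami50 and 181 ± 124 in vehicle (SD, n = 6 each), and its PD16 means were 186 ± 50.7 in vehicle (SD, n = 10), 143 ± 65.1 in MMI8 (SD, n = 10), 213 ± 173 in MMI16 (SD, n = 10), 97.3 ± 30.0 in Ami25 (SD, n = 11) and 92.4 ± 44.0 in Ami50 (SD, n = 12). The highest value in any library, 687 CPM, was again in PD16 MMI16 replicate 10.

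Ghr was counted at 0 in 19 libraries and Insr at 0 in 48. Mean Ghr was 5.15 CPM in GD21 vehicle and 1.95 in PD16 vehicle, values of a few counts per library.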
